A study of Homo sapiens with 7 samples.

Results

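The genes described here encode the LSD1-CoREST-REST corepressor, the complex that binds the 3′ part of the long noncoding RNA HOTAIR. They are KDM1A, RCOR1, RCOR2, RCOR3, REST, HDAC1, HDAC2, PHF21A and HMG20B, taken as every non-control array probe that carries one of these 9 gene names. All 9 genes were on the array, among 34797 gene names, and they were read by 13 of the 42391 probes that had a value on every array. The cells were ACHN, an established human renal cell adenocarcinoma line, transduced with a pBabe-hygro retrovirus that held either no insert (EV, 4 arrays) or the HOTAIR cDNA (HOTAIR, 3 arrays) and selected with hygromycin. Both groups therefore carry the vector, and no clone was described, so each line is taken to be a transduced population. The comparison asks which transcripts differ when HOTAIR is forced on. Total RNA was labelled with Cy3 and hybridised to Agilent SurePrint G3 Human GE 8x60K arrays.

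KDM1A, also called LSD1, is a demethylase that removes methyl groups from lysine of the histone H3 tail. It acts well on nucleosomes when held by a CoREST scaffold protein (RCOR1, RCOR2 or RCOR3), which also holds the histone deacetylases HDAC1 and HDAC2. PHF21A (BHC80) and HMG20B (BRAF35) are smaller subunits that bind histone tails and DNA, and the zinc finger protein REST brings the complex to the RE1 element, a DNA motif near neuronal genes that are kept silent outside the nervous system. HOTAIR is known as a scaffold whose 5′ part binds PRC2 and whose 3′ part binds this complex. The array measured the mRNA of the subunits, not the proteins or their assembly.

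A probe reads 60 bases of a transcript, and its place decides which isoforms and which RNA fragments it can detect. The probes that lie in coding sequence are printed here. RCOR3, HMG20B and HDAC2 were also read elsewhere in the transcript, and the probes of these 3 genes are compared below. REST had no other probe. Each printed probe is written 5′ to 3′ on the mRNA strand, with hg19 coordinates from the array files.
REST A_23_P167081, chr4:57798055-57798114, plus strand: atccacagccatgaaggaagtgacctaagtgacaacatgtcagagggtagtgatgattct
RCOR3 A_24_P276816, chr1:211486131-211486190, plus strand: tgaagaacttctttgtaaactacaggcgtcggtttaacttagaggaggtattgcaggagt
HMG20B A_33_P3394599, chr19:3578051-3578110, plus strand: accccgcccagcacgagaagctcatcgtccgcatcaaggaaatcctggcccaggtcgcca
HDAC2 A_23_P122304, first 30 bases, at the 5′ end of a probe at chr6:114262195-114262253, minus strand: ggaaccaaatcagaacagctcagcaacccc

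Values are log2 intensities relative to the 75th percentile of the same array, so 0 is the level that 75% of the non-control spots lie below, and a difference is HOTAIR minus EV. That percentile lay between 523 and 649 intensity units on the 7 arrays, and 48.7% to 52.2% of the probes were well above background by the scanner software's own call. The number of arrays limits the precision. The HOTAIR probe (A_32_P168442, chr12:54356661-54356720 of hg19) checked the labels. It was well above background on 0 of 4 EV arrays and 3 of 3 HOTAIR arrays, with means of -6.69 ± 0.39 (SD, n = 4) and -2.98 ± 0.35 (SD, n = 3). The measured log2 difference was 3.71 (limma, adjusted p = 0.00162). In HOTAIR the signal was 9.32-fold above a floor, a value that was not itself tested. The floor was the dimmest signal called well above background on each EV array, where that exceeded the probe's own. It is no strict limit: a PAX2 probe with an EV mean of -5.64 was called on 0 of 4 EV arrays. The fold applies to the scanner's background-subtracted signal. With normexp background correction the log2 difference was 1.06 (limma, adjusted p = 0.0251). The kidney epithelial markers PAX8, PAX2, KRT8, KRT18 and EPCAM were well above background on all arrays. For PAX2 this held for its brighter probe only, and its other probe was called on none. Of the 9 markers of leukocytes, endothelium, fibroblasts and hepatocytes, CD68 alone was, and CD3E, COL1A1, PDGFRB and ALB were among the 5 that were on none. The 7 arrays shared 1 slide, with each group in its own row of the slide, so that effects of row and of HOTAIR cannot be told apart. The labels do not say whether replicates came from separate cultures or transductions, and the p-values then measure only the spread between these samples.

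None of the corepressor genes passed the test between the groups. Of the 13 probes, 12 were well above background on all 7 arrays and were tested, and these read 8 of the 9 genes. The count called was 0 of 12 by limma at an adjusted p below 0.05, against 0.167% of the 20419 probes tested. It was also 0 of 12 at an unadjusted p below 0.05, where 5.85% of all tested probes passed. The rank product, the algorithm named in the study's methods, called 0 of 12, against 0.406% of all tested probes. Adjusted p-values of the 12 probes ran from 0.926 to 0.998. With each gene read by its brightest tested probe, 4 genes lay above 0 and 4 below, and the median difference was -0.02, beside 0.01 over all tested probes. A bulk RNA sample cannot tell fewer cells with a transcript from less of it per cell.

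**Figure D1:**
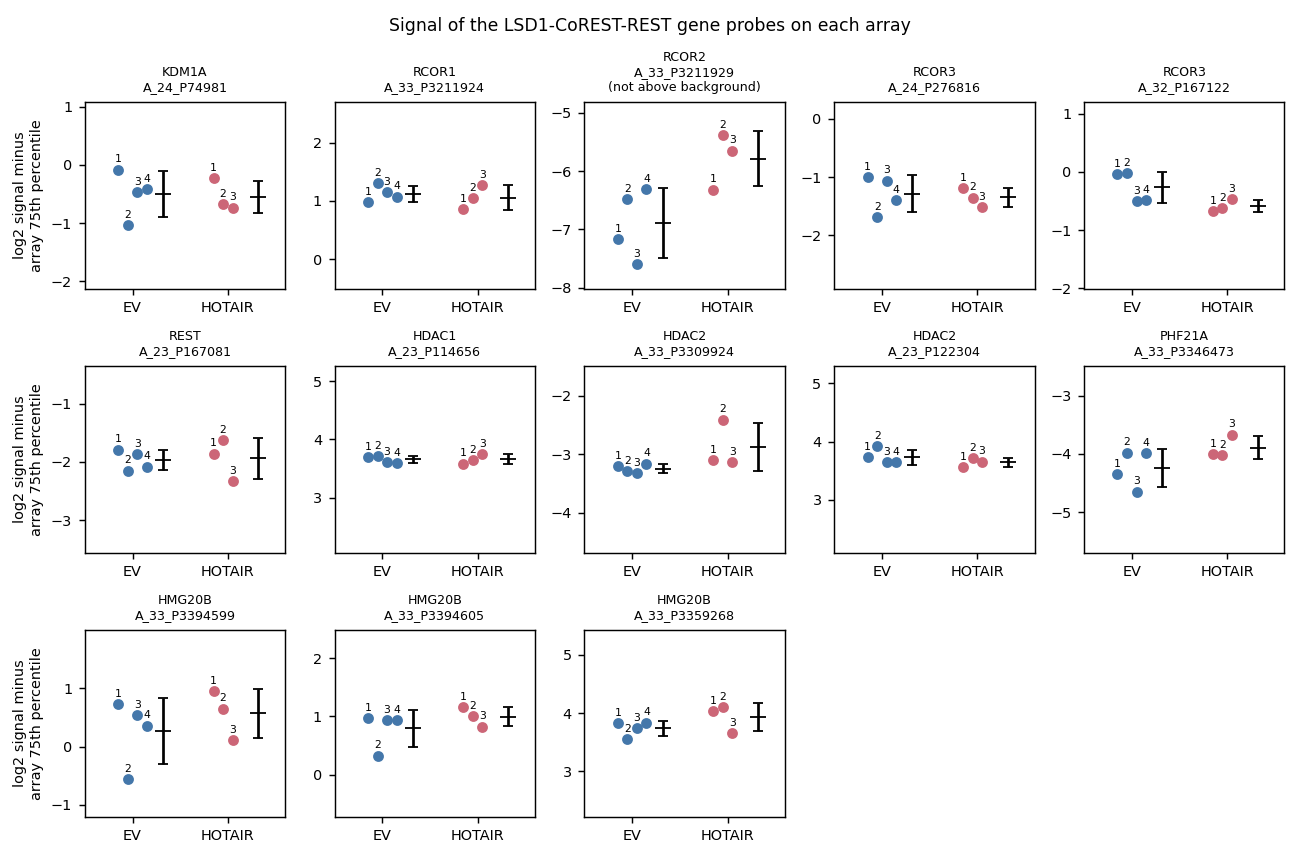
Log2 signal minus the array's 75th percentile (y axis, each panel spanning 3.2 log2 units around the probe's own mean) for the 13 probes of the 9 genes. Points are single arrays, labelled with the replicate number, and black bars are the group mean ± SD. The EV and HOTAIR points overlap in every tested panel except the distal HDAC2 probe A_33_P3309924, and EV 2 lies low for KDM1A and for the HMG20B probes.

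KDM1A, the catalytic demethylase, was read by 1 probe (A_24_P74981, chr1:23405495-23405554, plus strand). Its level was -0.08, -1.04, -0.47 and -0.42 on EV 1 to EV 4, and -0.23, -0.67 and -0.73 on HOTAIR 1 to HOTAIR 3. Every HOTAIR value fell inside the EV range, and EV 2 was the lowest array of all. The difference was -0.05 ± 0.24 (SE), with a 95% interval of 0.662-fold to 1.42-fold (limma, adjusted p = 0.994). The probe was printed as 2 spots per array, and the SD between the spots had a median of 0.05, far below the SD of 0.40 between EV arrays. Spots of 1 array share their labelling and hybridisation, so this comparison does not say where the spread between arrays arose.

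Of the CoREST scaffolds, RCOR1 had overlapping groups and the narrowest interval. RCOR1 (A_33_P3211924, chr14:103196738-103196797, plus strand) stood at 0.98, 1.30, 1.15 and 1.07 on the EV arrays and at 0.85, 1.05 and 1.27 on the HOTAIR arrays. The difference was -0.07 ± 0.14 (SE), and the interval ran from 0.762-fold to 1.19-fold (limma, adjusted p = 0.993). RCOR2, the scaffold best known from embryonic stem cells and neural progenitors, was not well above background on any of the 7 arrays (A_33_P3211929, chr11:63678727-63678786, minus strand). Its values were -7.17, -6.47, -7.59 and -6.31 in EV and -6.32, -5.39 and -5.65 in HOTAIR, and since neither group was well above background no fold is given. The exact two-sided permutation test over the 35 divisions of the arrays gave p = 0.0857 for RCOR2. With the filter lifted its unadjusted p was 0.0190 and its adjusted p over 42391 probes was 0.885 (limma). In that fit 1997 of the 42391 probes had an unadjusted p below 0.05.

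RCOR3, the third scaffold, was read by a pair of probes 2937 bases apart on the genome. The coding probe shown above had EV values of -0.999, -1.68, -1.06 and -1.39 and HOTAIR values of -1.19, -1.35 and -1.51. The groups overlapped, with a difference of -0.07 ± 0.19 (SE; limma, adjusted p = 0.993). The downstream probe (A_32_P167122, chr1:211489128-211489187, plus strand) is annotated to a set of RefSeq variants that only partly matches that of the coding probe. It had EV values of -0.04, -0.02, -0.50 and -0.49 and HOTAIR values of -0.67, -0.63 and -0.46. EV 1 and EV 2 were about equal and high, EV 3 and EV 4 fell close to the HOTAIR arrays, and HOTAIR 3 lay above EV 3 and EV 4. The difference of the downstream probe was -0.33 ± 0.16 (SE), the furthest below 0 among the genes, with a 95% interval of 0.614-fold to 1.04-fold (limma, adjusted p = 0.926; exact permutation p = 0.171). On EV 2 the coding probe lay 0.40 below its group mean while the downstream probe lay 0.25 above its own.

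HDAC1 and the HDAC2 probe at the stop codon, each printed as 10 spots, had the smallest spread of the 12 tested probes. HDAC1 (A_23_P114656, chr1:32799037-32799096, plus strand) read 3.69, 3.72, 3.62 and 3.60 in EV and 3.59, 3.64 and 3.75 in HOTAIR. The SD between its spots ran from 0.03 to 0.10 per array, about the size of the SD between arrays, 0.06 in EV and 0.09 in HOTAIR. The difference was 0.0045 ± 0.10 (SE), and the interval was 0.854-fold to 1.18-fold (limma, adjusted p = 0.998). Among all tested probes only 2.52% had a smaller pooled SD than HDAC1, a share not matched for spots per probe or for brightness.

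HDAC2 was read at its stop codon and again 4791 bases further 3′. The stop codon probe stood at 3.73, 3.92, 3.64 and 3.64 in EV and at 3.56, 3.71 and 3.66 in HOTAIR. Its difference was -0.09 ± 0.11 (SE; 0.781-fold to 1.13-fold; limma, adjusted p = 0.993). The distal probe (A_33_P3309924, chr6:114257344-114257403, minus strand) stood at -3.20, -3.30, -3.32 and -3.16 in EV and at -3.10, -2.41 and -3.13 in HOTAIR. It was the only 1 of the 12 tested probes whose groups did not overlap, 8.33% of them, beside 7.7% of all tested probes. The difference was 0.37 ± 0.19 (SE; limma, adjusted p = 0.926), and the exact permutation test gave 0.0286, the smallest p that 4 against 3 arrays allow. The size of the difference rested largely on a single spot: the 2 spots of this probe on HOTAIR 2 read -1.80 and -3.01, whereas on HOTAIR 1 they read -3.06 and -3.13. With the brighter HOTAIR 2 spot left out, an alternative chosen after seeing the data, the difference was 0.17 (limma, adjusted p = 0.946). The array means still did not overlap, since HOTAIR 2 then stood at -3.01 and the highest EV array at -3.16. The 2 spots of EV 2 also lay apart, at -3.05 and -3.54. The brighter of them lay above HOTAIR 1 at -3.10 and HOTAIR 3 at -3.13, so the separation held for array means and not for every spot.

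PHF21A, the subunit that reads the unmethylated histone H3 tail, had EV values of -4.35, -3.98, -4.65 and -3.98 and HOTAIR values of -4.01, -4.02 and -3.67 (A_33_P3346473, chr11:45950945-45951004, minus strand). EV 1 and EV 3 were the lowest arrays and HOTAIR 3 the highest, while EV 2 and EV 4 lay among the HOTAIR values. The difference was 0.34 ± 0.20 (SE), with an interval of 0.924-fold to 1.74-fold (limma, adjusted p = 0.939). It was 0.15 with normexp background correction, 0.21 without EV 3 and 0.23 without HOTAIR 3. The probe had 1 spot per array, so no spread within an array could be given.

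HMG20B, the HMG-box subunit, was read at 3 places within its last part, 549 and 300 bases apart. The coding probe shown above stood at 0.73, -0.55, 0.54 and 0.36 in EV and at 0.95, 0.65 and 0.11 in HOTAIR. The middle probe (A_33_P3394605, chr19:3578660-3578719) stood at 0.97, 0.32, 0.94 and 0.93 in EV and at 1.15, 1.00 and 0.82 in HOTAIR. The probe nearest the 3′ end (A_33_P3359268, chr19:3579020-3579079) stood at 3.83, 3.55, 3.75 and 3.84 in EV and at 4.04, 4.10 and 3.66 in HOTAIR. At all 3 places EV 2 was the lowest EV array and HOTAIR 3 the lowest HOTAIR array. The differences were 0.30 ± 0.33, 0.20 ± 0.19 and 0.20 ± 0.15 (SE) from 5′ to 3′, with adjusted p-values of 0.993, 0.993 and 0.983 (limma). Without EV 2 they were 0.03, 0.05 and 0.13, and without HOTAIR 3 they were 0.53, 0.29 and 0.33. With both arrays left out, an alternative chosen after seeing the data, they were 0.26, 0.13 and 0.27. For the coding probe the interval of 0.722-fold to 2.11-fold was the widest of the 12 and the only one to include a doubling.

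REST, the DNA-binding repressor, was read by the coding probe shown above. It stood at -1.79, -2.15, -1.86 and -2.08 in EV and at -1.86, -1.63 and -2.33 in HOTAIR. HOTAIR 2 was the highest array and HOTAIR 3 the lowest, so the EV values lay between 2 arrays of the other group. The difference was 0.03 ± 0.19 (SE), with an interval of 0.758-fold to 1.38-fold (limma, adjusted p = 0.994).

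**Figure D2:**
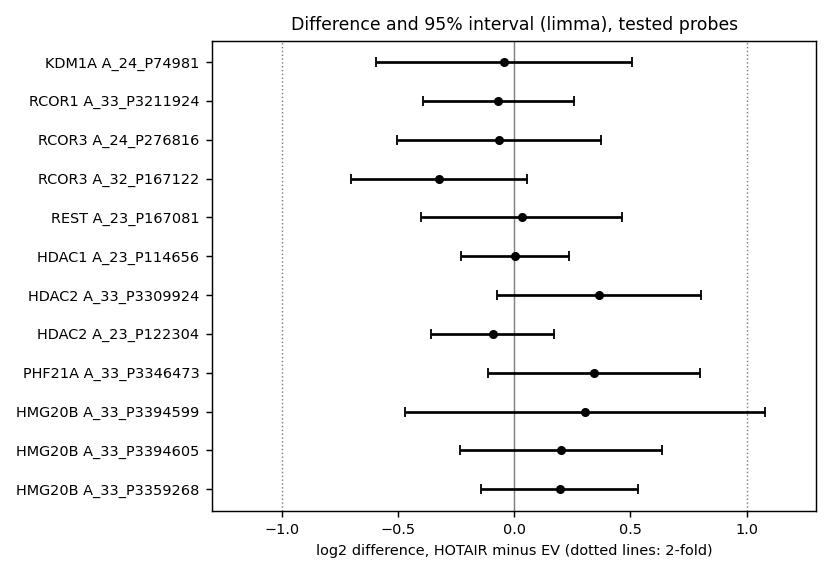
Log2 difference, HOTAIR minus EV (x axis), for the 12 tested probes; points are the limma estimates, bars the 95% intervals, and dotted lines mark 2-fold. Every interval includes 0, and only that of HMG20B A_33_P3394599 reaches past 2-fold.

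The arrays that stood apart for these genes were the same pair in most probes. EV 2 lay farthest from its group mean for 6 of the 12 tested probes and HOTAIR 3 for 4. The 2 arrays bear different replicate numbers, yet over all 20419 tested probes their deviations correlated (Pearson's r = 0.619, across probes of shared arrays, as a description). For HMG20B, EV 2 lay 0.82, 0.47 and 0.19 below the EV mean from the coding probe to the 3′ end, and HOTAIR 3 lay 0.46, 0.17 and 0.27 below the HOTAIR mean. For HDAC2 the stop codon probe of EV 2 lay 0.18 above its group mean and the distal probe 0.05 below. The deviation of EV 2 thus ended higher at the 3′ probe for RCOR3 and HMG20B and lower for HDAC2. The distal HDAC2 value of EV 2 is the mean of spots at -3.05 and -3.54, which span more than that change. The median absolute deviation of EV 2 was 0.22 over the 12 probes and 0.22 over all tested probes, and that of HOTAIR 3 was 0.20 and 0.15. Over all tested probes EV 2 had the largest value of all arrays and HOTAIR 3 the next, just above EV 4 at 0.14. The pair therefore did not stand apart for these genes alone. The median pooled SD of the 12 probes was 0.26, beside 0.22 over all tested probes. With EV 2 and HOTAIR 3 both left out, an alternative chosen after seeing the data, 0 of the 12 probes were called. Whether RNA quality differed on these arrays was not tested.

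**Figure D3:**
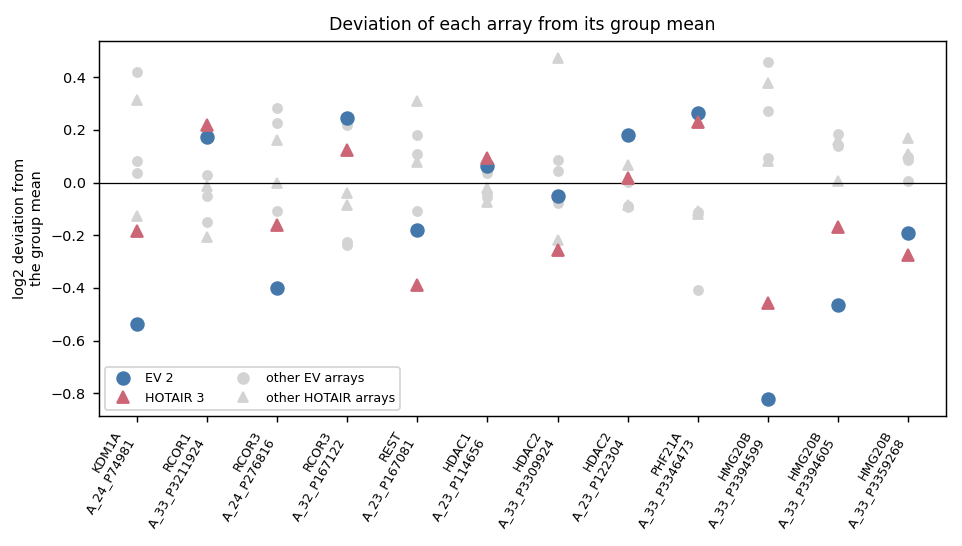
Deviation of each array from its own group mean (y axis, log2) for the 12 tested probes (x axis). Blue circles are EV 2, red triangles HOTAIR 3, and grey marks the other arrays; EV 2 and HOTAIR 3 lie on the same side of 0 for all 12 probes, from -0.82 to 0.26 for EV 2.

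None of the partners and relatives of the complex passed the test. The list held 36 genes: accessory subunits such as ZMYM2 and ZMYM3, the second LSD demethylase KDM1B, other deacetylases and their SIN3 and NuRD assemblies, and the zinc finger factors that recruit LSD1, such as SNAI1 and GFI1B. GSE1 had no probe under that name, 31 of the other 35 genes were tested, and GFI1 and INSM1, factors of blood and endocrine cells, were well above background on no array. Of the 31 tested genes, 0 were called higher and 0 lower by limma, 0 had an unadjusted p below 0.05, and 0 had groups that did not overlap. Over all tested probes 0.167% were called, 5.85% had an unadjusted p below 0.05 and 7.7% had groups that did not overlap. The median difference was -0.02, with 12 genes above 0 and 19 below. The 3 largest positive differences were those of SIN3B at 0.35 ± 0.23, SNAI2 at 0.23 ± 0.23 and CHD4 at 0.20 ± 0.19 (SE). SIN3B and CHD4 are a deacetylase scaffold and the NuRD remodeller. In all 3 genes EV 4 was the lowest array, and without it the differences were 0.14, 0.02 and 0.04. With other single arrays left out they reached 0.44, 0.33 and 0.28. The largest negative differences were those of ZNF217 at -0.34 ± 0.19 and KDM1B at -0.27 ± 0.28 (SE), and in both EV 2 was the highest array. Without EV 2 they were -0.19 and -0.06, and with other single arrays left out they reached -0.44 and -0.47. The adjusted p-values of these genes ran from 0.932 to 0.993 (limma).

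REST represses neuronal genes, so the transcripts of its known targets were read as a second list of 46 genes, all with a probe. In this kidney line 19 of them were well above background on no array, among them SYN1, SYP, SYT4, STMN2, GRIN1, GRIA2 and DRD3, genes of synapses and neuronal growth. Another 18 were well above background on every array, among them TUBB3, NEFL, L1CAM, BDNF and VGF. The promoters in RefSeq (GRCh38.p14, 250 bases before to 50 after each gene start) were searched on both strands for the RE1 letters TCAGCACC, then any 2 bases, then GGACAG. The table gave 48 promoters for 31 of the target genes, and 3 of these (6.25%) held the letters, beside 0.0399% of all 35116 promoters. They are shown because they spell the element that REST is known to bind, with the searched letters in capitals, read 5′ to 3′ on the strand of the match.
DRD3, chr3:114178962-114178982, gene strand: tTCAGCACCaaGGACAGaacc
GRIA2, chr4:157220388-157220408, opposite strand: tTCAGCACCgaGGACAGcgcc
SYN1, chrX:47620070-47620090, gene strand: tTCAGCACCgcGGACAGtgcc
DRD3, GRIA2 and SYN1 encode a dopamine receptor, a glutamate receptor subunit and a synaptic vesicle protein. All 3 were well above background on no array of either group. Of the 12 promoters found for 8 of the corepressor genes, 0 held the full element. A match in this window is a description of letters and does not show binding. The list holds genes already known as REST targets, so their higher share of matches describes the list and is no result of these arrays.

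Of the 19 REST targets tested, 0 were called higher and 0 lower by limma, beside 0.167% of all tested probes called. In this list 12 differences lay above 0 and 7 below, and the median was 0.11. An unadjusted p below 0.05 was reached by 3 genes, NEFL, SNAP25 and SCN8A, 3 of 19 beside the 5.85% of all tested probes. When a probe had to be well above background on each of the 7 arrays, it was 2 of 18. NEFL, the light neurofilament subunit, stood at 0.32, 0.11, 0.11 and 0.03 in EV and at 0.99, 1.15 and 0.82 in HOTAIR. All HOTAIR arrays lay above all EV arrays, and the difference was 0.84 ± 0.13 (SE), or 1.79-fold with an interval of 1.46-fold to 2.20-fold. It missed the threshold (limma, adjusted p = 0.0832; exact permutation p = 0.0286). SNAP25, a synaptic SNARE protein, stood at -3.20, -2.99, -3.37 and -3.21 in EV and at -2.84, -2.51 and -2.50 in HOTAIR. Its groups did not overlap either, with a difference of 0.58 ± 0.14 (SE; limma, adjusted p = 0.347). NEFL and SNAP25 were 2 of the 22 tested probes of the list, 9.09%, beside the 7.7% of all tested probes whose groups did not overlap. With limma's array weights, which give arrays of larger spread less say, both passed the threshold, at adjusted p-values of 0.00487 for NEFL and 0.0221 for SNAP25, and 324 of all tested probes passed in place of 34. No other alternative called either gene. SNAP25 gave 0.23 with normexp background correction (limma, adjusted p = 0.917). With the replicate number as a block the adjusted p-values were 0.532 for NEFL and 0.825 for SNAP25 (limma). That block takes EV 4, the only array of its number, out of the contrast. Without EV 4 and with no block the same differences had adjusted p-values of 0.187 and 0.442 (limma). The rank product called neither.

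SYT1, a vesicle calcium sensor, had the second largest positive difference of the targets, 0.62 ± 0.46 (SE, limma, adjusted p = 0.981). The difference was 0.15 with normexp background correction and 0.80 with array weights. With single arrays left out it ran from 0.32 without EV 1 to 0.97 without EV 2. Its EV values ran from -4.91 to -2.94 and enclosed all HOTAIR values but that of HOTAIR 3, at -2.81. The 3 largest negative differences were those of ion channels. SCN8A stood at -0.44 ± 0.17 (SE; limma, adjusted p = 0.773) and was well above background on 4 of 4 EV arrays but on 2 of 3 HOTAIR arrays, so it was tested through the EV group alone. TRPV1 stood at -0.29 ± 0.21 and SCN2A at -0.19 ± 0.24 (SE; limma, adjusted p = 0.973 and 0.993). For both, EV 2 was the highest array of all. TRPV1 gave -0.17 without EV 2, and with single arrays left out it ran from -0.47 without HOTAIR 3 to -0.13 without HOTAIR 1. SCN2A gave 0.02 with EV 2 and HOTAIR 3 left out.

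**Figure D4:**
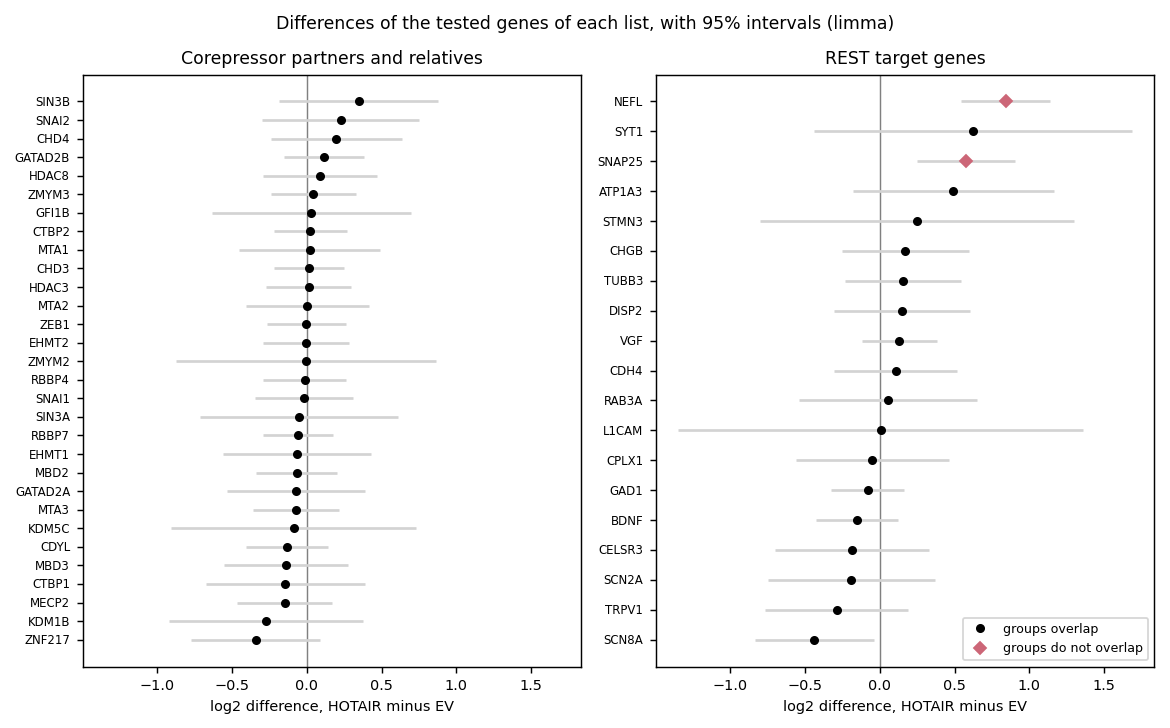
Log2 difference, HOTAIR minus EV (x axis), of the tested partner genes (left, 1 of the 31 not shown) and 19 tested REST targets (right), each read by its brightest tested probe; grey bars are 95% limma intervals. Red diamonds mark NEFL and SNAP25, at 0.84 and 0.58, whose groups did not overlap; partner genes lie between -0.34 and 0.35.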

How the data were processed

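The authors deposited Agilent Feature Extraction 10.7.3.1 output for 7 one-colour arrays, and a value table of the same intensities that matched the processed signal within 0.498% over 440783 cells and was used as an alternative. In the deposited files the processed intensity is background-subtracted on a linear scale and not scaled between arrays, and the study's methods name no scaling or filter. Control spots and spots flagged as outliers were left out (408 to 600 per array), none was saturated, log2 intensity was set against the array's 75th percentile over 58717 spots, and spots of a probe were averaged. Probes that the software called well above background throughout at least 1 group were tested with limma 3.58.1 in R 4.3.3, with Benjamini-Hochberg adjustment over 20419 probes. The rank product used 12 pairs of arrays and 100 permutations.

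The 9 genes and both lists were chosen with earlier results of these data known. The text names every probe of the 9 genes, HOTAIR, and from each list the genes called and the 3 largest differences either way, apart from items that are not reported here. A list gene was read by its brightest tested probe. Probe coordinates are those of the files (hg19) and promoters those of RefSeq on GRCh38.p14, matched by gene symbol. Alternatives were the background correction, scaling, filter, moderation, array weights, the replicate number as a block, the mean over a gene's probes, the rank product and leaving out arrays.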

Additional observations from a re-analysis of the deposited data

Results flagged for a closer look

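Among 26 groups of 4 EV arrays tested for a single array far from the rest, 2 passed Dixon's 95% critical value, where chance gives about 1.3. ZNF217, a zinc finger partner of the complex, had a gap of 0.871 of the EV range, with EV 2 at 2.08 and the next array at 1.50. The middle HMG20B probe A_33_P3394605 had a gap of 0.932 of the EV range, with EV 2 at 0.32 and the next array at 0.93. Both flags fall on EV 2, in opposite directions.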

How the results depend on the processing

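For the 12 probes of the complex and for the partner genes the count called was 0 under every alternative run. For all tested probes it was 34 in the reported fit and 12 with normexp, 14 with no filter, 22 with probes well above background on all arrays, 20 with trend and robust moderation, 324 with array weights, 14 without EV 2 and HOTAIR 3, and 9 to 31 when single arrays were left out. The REST targets gave 2 calls with array weights and 0 otherwise. With array weights 3 of the 12 probes of the complex had an unadjusted p below 0.05, and their lowest adjusted p was 0.137 (limma). Among all 20419 tested probes, 3663 had an unadjusted p below 0.05 in that fit. Same-numbered EV and HOTAIR arrays had deviations that correlated at 0.386, -0.368 and -0.406, so the numbers were not taken as pairs. With the replicate number as a block the count was 0 and HOTAIR gave 3.59 (limma, adjusted p = 0.0772). Number 4 exists only in EV, so the differences with the block are those without EV 4. Of the differences that changed sign, none was called. REST gave -0.020 with normexp, -0.0030 with quantile normalization and -0.0038 with the replicate block. HDAC1 gave -0.038 with normexp, -0.0097 with median scaling, -0.014 with the block and -0.022 without EV 2 and HOTAIR 3. HDAC2 gave 0.14 as the mean of its probes, and SCN2A gave 0.091 with array weights and 0.024 without EV 2 and HOTAIR 3. Leaving out the arrays one by one, the differences ran from -0.22 to 0.095 for KDM1A, -0.18 to 0.034 for RCOR1, -0.20 to 0.028 for RCOR3 A_24_P276816, -0.12 to 0.23 for REST, -0.042 to 0.042 for HDAC1 and -0.35 to 0.016 for SCN2A; the cause was not tested. The distal HDAC2 probe gave 0.13 without HOTAIR replicate 2. A Mann-Whitney test cannot fall below p = 0.0571 here (exact) and was not used.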
